A study of Caenorhabditis elegans with 9 samples.

Results

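The heat shock genes described here are 10 genes of Caenorhabditis elegans that encode the cytosolic HSP70 and HSP110 chaperones, the small heat shock proteins of the hsp-16 family, and HSF-1, the transcription factor of the heat shock response. They were chosen by name, not by a threshold on their values, from the 46284 WormBase gene IDs of the deposited table, and all 10 have an entry there. Expression was measured by RNA-seq in 9 libraries of whole wild-type N2 animals, 500 animals per sample, after 12 h in liquid culture. The control group (3 libraries) received no nanomaterial, the GO group (3 libraries) graphene oxide, an oxidised carbon sheet, and the GONH2 group (3 libraries) the amino-functionalized form of it. All 3 groups therefore share the strain, the medium and the time in it; the sources used here state neither the age of the animals, nor the dose, nor whether replicates were grown apart. P-values therefore cover only the spread between these samples, which may be technical.

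In animal cells, HSP70 chaperones bind unfolded stretches of other proteins and release them under control of ATP, J-domain proteins and nucleotide exchange factors such as HSP110. Small heat shock proteins hold unfolding proteins without ATP. In C. elegans the hsp-16 genes and hsp-70 are nearly silent in unstressed animals and are induced strongly by heat and other protein-damaging conditions through HSF-1, which is why hsp-16 reporters are widely used as sensors of such stress. The constitutive HSP70 gene hsp-1, by contrast, serves the everyday folding of cytosolic proteins.

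Levels are given as FPKM, which count fragments relative to transcript length and to the mapped fragments of the library, as the authors deposited them, so they can be compared between genes. Between 12299 and 12676 genes had at least 1 FPKM in a library, and library sums ran from 955606 to 1010904 FPKM. The depth behind a value is unknown, since read totals cannot be had from FPKM. Of 17 markers of the tissues a whole animal holds, 14 had at least 1 FPKM in every library. The exceptions were the yolk protein gene vit-2, listed at 0 in all 9 libraries, and the sperm genes msp-3 and spe-9, which stayed at or below 1.20 and 0.279 FPKM. In whole animals, fewer cells of a type and less RNA per cell cannot be told apart.

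None of the heat shock genes passed the test for a difference between the groups. With 3 libraries per group, 7 of the 10 genes had at least 1 FPKM in at least 3 libraries and entered the test, a limma fit of log2(FPKM + 1) across 12849 genes with p-values adjusted by the Benjamini-Hochberg method and a threshold of 0.05. In that fit 0 of the 7 passed for GO minus control, where 1.26% of all genes tested did, 0 for GONH2 minus control (0.436% of all genes), 0 for GONH2 minus GO (0.132%) and 0 in the moderated F test over the 3 groups (0.957%). At an unadjusted p under 0.05 limma also counted 0 of the 7 in each comparison, against 7.74%, 5.31% and 4.65% of all genes. The smallest adjusted p over these 3 comparisons and 7 genes was 0.938. Of the 7 genes, 0 had all GO libraries above or all below the control libraries (9.0% and 3.12% of all genes tested), and 0 had all GONH2 libraries above or below control (5.18% and 3.65%). In 1 gene, hsp-16.11, all GONH2 libraries lay above the GO libraries (2.93% of all genes) and in 0 below them (7.09%). With backgrounds this low, 0 of 7 does not set these genes apart from other genes. The other 3, hsp-16.1, hsp-16.48 and hsp-16.49, were listed at 0 in all 9 libraries and could not be tested.

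The 6 hsp-16 genes lie in 2 loci on chromosome V (positions of the WBcel235 annotation, Ensembl release 115; the build behind the deposited values is not stated in the labels or the file). In the first, from 1804334 to 1805875, hsp-16.2 on the minus strand and hsp-16.41 on the plus strand point away from each other with 220 bases between their annotated starts. The other, from 9087293 to 9090604, holds an inverted duplication of such a pair. There hsp-16.1 and hsp-16.48 diverge with 348 bases between their starts, and hsp-16.49 and hsp-16.11 with 310 bases. The genes hsp-16.1 and hsp-16.11 are near-identical copies, as are hsp-16.48 and hsp-16.49, and the annotation gives each pair the same symbol, so these 4 were identified by gene ID and sequence name.

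**Figure D1:**
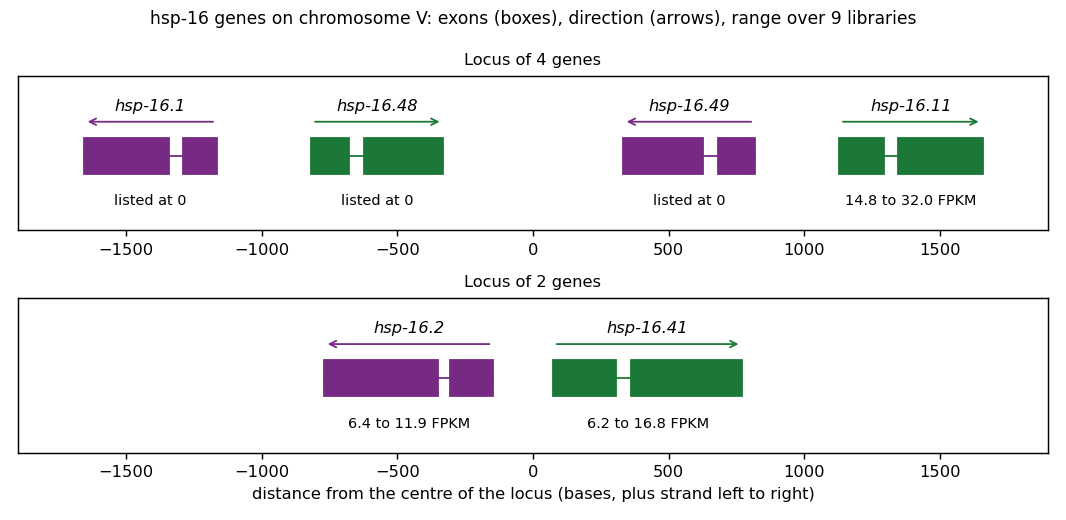
Exon models of the 6 hsp-16 genes (boxes), their direction of transcription (arrows) and the range of their FPKM over 9 libraries, against the distance in bases from the centre of each locus. Of the 4 genes in the larger locus only hsp-16.11, at 14.8 to 32.0 FPKM, was listed above 0.

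The reads of such copies cannot be assigned with certainty, and the labels do not say how the authors treated reads with several equally good positions. The 3 genes listed at 0 have annotated models without a UTR (438 exon bases for hsp-16.1 and 432 for each of hsp-16.48 and hsp-16.49). The hsp-16.11 model has 2 exons with the coding length of its copy plus a 5′ UTR of 38 bases, 476 exon bases in all. The value of hsp-16.11 may therefore hold reads of hsp-16.1, and the zeros are reported as listed, not as absence of transcript; the part of read assignment in them was not tested.

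The constitutive genes were abundant and even. hsp-1 (WBGene00002005, chromosome IV, 17278959 to 17281330, 4 exons), which encodes the constitutive cytosolic HSP70, had 1919, 2087 and 2050 FPKM in the control libraries, 1911, 2017 and 2109 with GO, and 2003, 2088 and 1958 with GONH2. This placed it at rank 84 of the 12849 tested genes by mean FPKM, and its highest library was 1.104 times its lowest. The groups overlapped throughout, with means of 2019 ± 88.3, 2012 ± 99.1 and 2016 ± 65.7 FPKM (SD, n = 3). The log2 difference was −0.0049 ± 0.049 (SE) for GO and −0.0014 ± 0.049 for GONH2. The 95% confidence intervals, expressed as ratios of FPKM + 1, ran from 0.923 to 1.08 for GO and from 0.925 to 1.08 for GONH2.

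hsp-110 (WBGene00016250, chromosome III, 8443910 to 8446909, 6 exons), the HSP110 that acts as nucleotide exchange factor for HSP70, had 196, 208 and 198 FPKM in control, 191, 197 and 211 with GO, and 205, 209 and 193 with GONH2. Its level followed that of hsp-1 from library to library, and the ratio of hsp-1 to hsp-110 stayed between 9.75 and 10.4 in all 9 libraries. The groups overlapped, and the log2 differences were −0.0078 ± 0.047 for GO, 0.012 ± 0.047 for GONH2 and 0.020 ± 0.047 between the materials. The interval of the GO ratio ran from 0.924 to 1.07 and that of the GONH2 ratio from 0.937 to 1.09.

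hsf-1 (WBGene00002004, chromosome I, 11953507 to 11963085, 8 exons) was the most even of the 7 genes. It had 55.9, 54.7 and 54.6 FPKM in control, 53.9, 53.3 and 55.2 with GO, and 56.5, 52.6 and 52.3 with GONH2. The GONH2 group held both the highest and the lowest library, and the other groups lay between them. Its replicate SD on the log2 scale, 0.039, was lower than that of all but 8.56% of the genes tested. The log2 differences were −0.024 ± 0.037 for GO and −0.033 ± 0.037 for GONH2, with ratio intervals of 0.927 to 1.04 and 0.921 to 1.04. HSF-1 is regulated largely at the protein level, by trimerisation and modification, which these values do not measure.

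The heat-inducible genes were lower than hsp-1, hsp-110 and hsf-1 and varied more between replicates. By mean FPKM, hsp-16.11 ranked 6052, hsp-16.41 7757, hsp-16.2 7994 and hsp-70 11243 of the 12849 tested genes. By mean FPKM over all 9 libraries, the hsp-16 genes with values above 0 were thus in the middle of the range. Their control means were 20.4 FPKM for hsp-16.11, 9.37 for hsp-16.41 and 8.72 for hsp-16.2. Ranks within control alone were not computed. hsp-70 (WBGene00002026, chromosome I, 9320325 to 9322519, 3 exons), the heat-inducible cytosolic HSP70, had 2.14, 1.68 and 1.55 FPKM in control, 2.14, 1.19 and 2.12 with GO, and 3.64, 2.44 and 1.18 with GONH2. The GONH2 group held both the highest and the lowest library. The level of hsp-1 was 550 to 1695 times that of hsp-70, depending on the library. The log2 difference was 0.00075 ± 0.27 for GO and 0.23 ± 0.27 for GONH2, and at such low FPKM the added 1 makes these differences smaller than the change in FPKM itself.

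**Figure D2:**
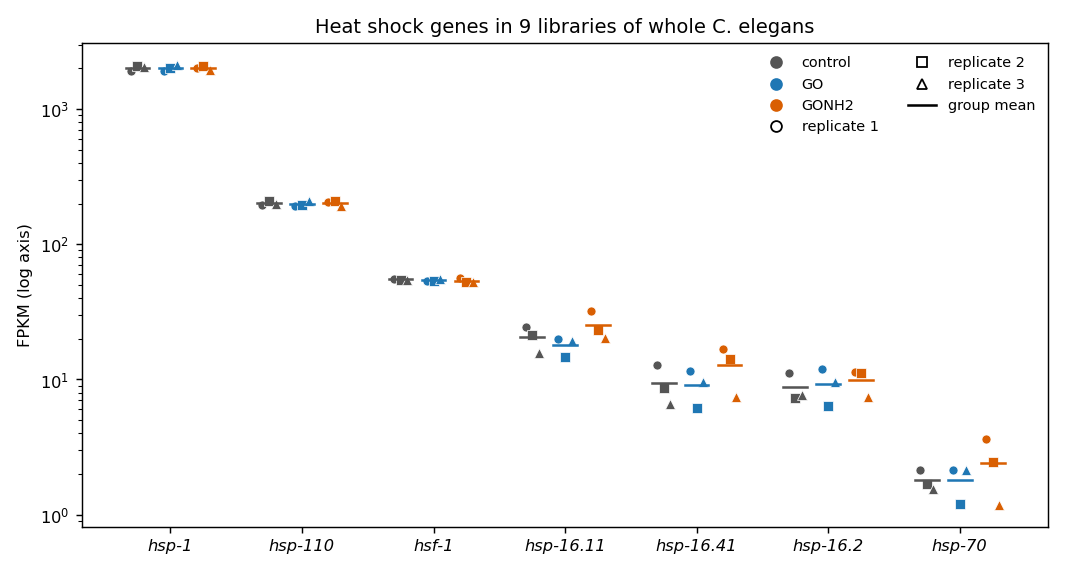
FPKM of the 7 tested heat shock genes in each library on a log axis, with groups in colour, replicate numbers as symbols and group means as bars. hsp-1, hsp-110 and hsf-1 form tight groups, while hsp-70 ranges from 1.18 to 3.64 FPKM and the groups of the hsp-16 genes overlap, except GONH2 and GO in hsp-16.11.

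hsp-16.11 (WBGene00002017, chromosome V, 9090077 to 9090604), a small heat shock protein gene, had 24.4, 21.3 and 15.7 FPKM in control, 19.9, 14.8 and 19.1 with GO, and 32.0, 23.3 and 20.1 with GONH2. Both materials overlapped with control. The GONH2 libraries all lay above the GO libraries, by a margin of 20.1 against 19.9 FPKM, an order seen in 2.93% of all genes tested. The difference of GONH2 minus GO was 0.45 ± 0.20 on the log2 scale (95% confidence interval −0.011 to 0.92), with an adjusted p of 0.9997 in limma. Against control the differences were −0.17 ± 0.20 for GO and 0.28 ± 0.20 for GONH2. Over the 19 alternative settings the difference between the materials ran from 0.27 without GONH2 replicate 1 to 0.59 without GONH2 replicate 3. In limma its unadjusted p ran from 0.0183 to 0.197 over them and was under 0.05 in 8, and its adjusted p was 0.285 or more.

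hsp-16.41 (WBGene00002018, chromosome V, 1805178 to 1805875) had 12.9, 8.69 and 6.54 FPKM in control, 11.6, 6.15 and 9.59 with GO, and 16.8, 14.1 and 7.44 with GONH2. Its neighbour hsp-16.2 (WBGene00002016, chromosome V, 1804334 to 1804957) had 11.2, 7.31 and 7.66 FPKM in control, 11.9, 6.37 and 9.60 with GO, and 11.3, 11.1 and 7.36 with GONH2. All groups overlapped in both genes. The log2 differences of hsp-16.41 were −0.029 ± 0.33 for GO and 0.39 ± 0.33 for GONH2, and those of hsp-16.2 were 0.067 ± 0.24 and 0.17 ± 0.24.

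The precision differed between the classes. For hsp-1, hsp-110 and hsf-1 all intervals of the ratio of FPKM + 1 to control lay between 0.921 and 1.09. For the hsp-16 genes and hsp-70 they were wide: the upper bound with GO was 1.23 for hsp-16.11, 1.54 for hsp-16.2, 1.67 for hsp-16.41 and 1.54 for hsp-70, and with GONH2 it was 1.68, 1.66, 2.22 and 1.80. These bounds are limits around each estimate, not the smallest change that could have been detected. As ratios of FPKM + 1, the upper bounds are smaller than the same change in FPKM itself, most of all for hsp-70. The replicate SDs of the hsp-16 genes and hsp-70, 0.29 to 0.48 on the log2 scale, exceeded those of 87.9% to 95.7% of all genes tested. The median over all genes was 0.111.

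**Figure D3:**
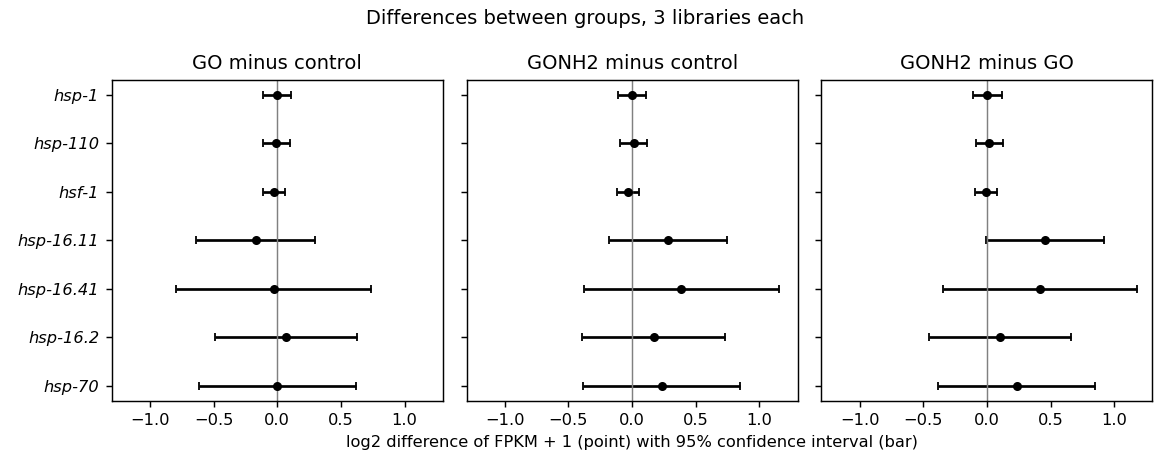
Log2 differences of FPKM + 1 (points) with 95% confidence intervals (bars) for the 7 tested genes in the 3 comparisons. All 21 intervals cross 0, and those of hsp-1, hsp-110 and hsf-1 are narrow.

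By mean FPKM the order was hsp-1, hsp-110, hsf-1, hsp-16.11, hsp-16.41, hsp-16.2 and hsp-70. The steps down to hsp-16.11 held in every library, and so did that from hsp-16.11 to hsp-16.41. hsp-16.41 and hsp-16.2 did not differ beyond their spread: hsp-16.41 was higher in 5 of 9 libraries and their ratio ran from 0.854 to 1.48. hsp-16.11 was 1.67 to 2.91 times hsp-16.2. Since its value may hold reads of hsp-16.1, the place of hsp-16.11 in this order is that of the listed values.

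Within the set, the inducible genes varied together across libraries, and hsp-1 and hsp-110 varied together in another order. hsp-70, hsp-16.11, hsp-16.2 and hsp-16.41 each had their highest value within a group in replicate 1, in all 3 groups, which held for 8.96% of all genes tested. GO replicate 2 was the lowest library of the GO group for these 4 genes, and GONH2 replicate 3 that of the GONH2 group. Averaged over the 3 hsp-16 genes, the deviation from the mean over all libraries was 0.53 in GONH2 replicate 1, 0.30 in GONH2 replicate 2 and 0.28 in control replicate 1, and −0.51 in GO replicate 2 and −0.38 in control replicate 3 (log2). High and low libraries were thus found in more than 1 group. As a description over the 9 libraries, Pearson's r of log2 values was 0.93 between hsp-16.41 and hsp-70, 0.91 between hsp-16.41 and hsp-16.2, 0.90 between hsp-16.41 and hsp-16.11, and 0.69 between hsp-16.11 and hsp-16.2. The hsp-16 genes may share reads, and all genes of a library share its RNA preparation.

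**Figure D4:**
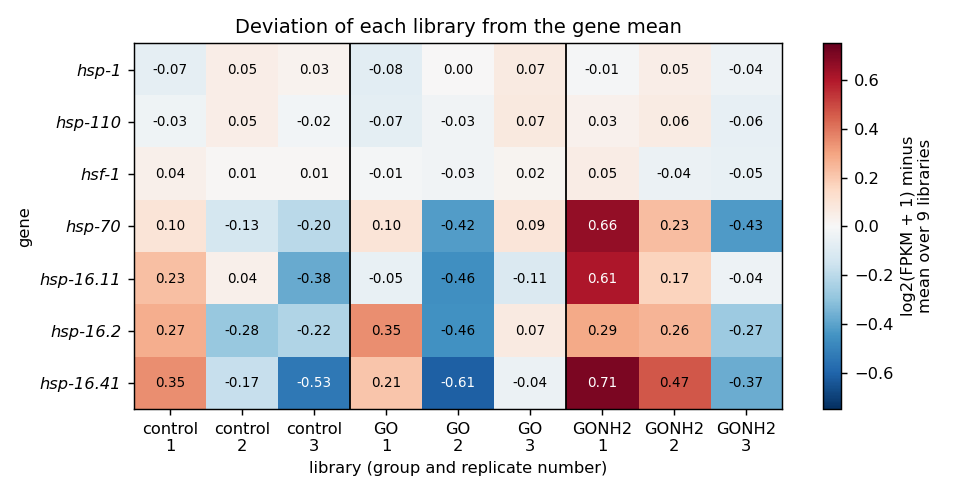
Deviation of log2(FPKM + 1) from the mean over 9 libraries for each tested heat shock gene, with libraries in columns by group and replicate. The 4 inducible genes at the bottom are high in GONH2 replicate 1 (0.29 to 0.71) and low in GO replicate 2 (−0.61 to −0.42), whereas hsp-1, hsp-110 and hsf-1 stay within 0.08 of their means.

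The constitutive pair, hsp-1 and hsp-110, peaked in control replicate 2, GO replicate 3 and GONH2 replicate 2 (r = 0.86 between them over 9 libraries). r between hsp-1 and the 4 inducible genes was −0.30 to 0.020. For hsp-110 it was positive with all 4, from 0.11 (hsp-16.2) to 0.45 (hsp-70), so the 2 classes were not fully separate. For hsf-1, r was 0.61 to hsp-70, 0.47 to hsp-16.11, 0.42 to hsp-16.41, 0.37 to hsp-16.2, 0.29 to hsp-110 and −0.011 to hsp-1. For deviations from the group means these were 0.82, 0.80, 0.66, 0.52, 0.35 and −0.022. The share of all genes with such r to hsf-1 was not computed, and a regulatory link was not tested. Among the 12848 other genes tested, the gene most like hsp-1 over the 9 libraries was hsp-90, the cytosolic HSP90, at r = 0.96, followed by linc-1 (0.95) and Y38A10A.7 (0.94). For hsp-16.41, the tested gene with the widest range, they were hsp-70 (0.93), rexd-1 (0.92) and hsp-16.2 (0.91). For hsf-1 they were mlt-3 (0.95), F35B12.9 (0.94) and C30F12.3 (0.94). These are the extremes of 12848 correlations over 9 points and are given as a description.

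The rest of the chaperone network was examined by 6 lists, and 0 of their tested genes passed the threshold in any of the 3 comparisons. Across the 12849 tested genes the share that passed was also small: 1.26% with GO, 0.436% with GONH2 and 0.132% between the materials. In lists this short, 0 calls therefore do not set the chaperone genes apart from the rest. HSP90 with its cochaperones and the J-domain partners of HSP70 (15 of 15 tested) had a median log2 difference of −0.026 with GO and −0.029 with GONH2, where the medians over all genes tested were 0.024 and 0.0031. hsp-90 itself had 1905 ± 103 FPKM in control, 1862 ± 128 with GO and 1854 ± 70.5 with GONH2 (SD, n = 3), and daf-41, the p23 cochaperone, 656 ± 36.9, 649 ± 39.9 and 643 ± 19.1. Of these 15 genes 9 had their maxima in the same 3 libraries as hsp-1 (control replicate 2, GO replicate 3 and GONH2 replicate 2). So did 7 of the 8 subunits of the chaperonin CCT, which folds actin and tubulin, and 4.88% of all genes tested. Among tested genes of the other lists, 2 of 6 of the HSP70 family and 2 of 7 organelle chaperones did. The counts were 1 of 9 for the other small heat shock proteins and 0 of 3 for the HSF-1 regulators. The CCT subunits had medians of −0.015 and 0.00062, and the 2 most abundant, cct-5 and cct-1, had 346 ± 12.5 and 284 ± 11.6 FPKM in control, 346 ± 12.4 and 281 ± 10.6 with GO, and 343 ± 7.25 and 285 ± 5.97 with GONH2.

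Of the other HSP70 family genes, 6 of 8 were tested, with medians of 0.011 with GO and −0.0100 with GONH2. F44E5.4 and F44E5.5, a near-identical pair of heat-inducible HSP70 genes, did not reach the filter. F44E5.4 had 0.399, 0.0634 and 0.0766 FPKM in control, 0.294, 0.134 and 0.143 with GO, and 0.353, 0.344 and 0.0956 with GONH2, and F44E5.5 ranged from 0.0512 to 0.468. Like hsp-70, both had their highest value of each group in replicate 1. As near-identical copies they may share reads, so they are not 2 independent cases. This order held for 0 of the 6 tested genes of this list. It held for 2 of the 9 tested other small heat shock proteins and for 8.96% of all genes tested. The organelle chaperones (7 of 7 tested; 4 of them also in the HSP70 list) had medians of 0.032 and 0.011. Among them hsp-3, an HSP70 of the endoplasmic reticulum, had 489 ± 2.28, 516 ± 25.4 and 498 ± 43.4 FPKM in control, GO and GONH2, enpl-1, its HSP90 counterpart, 355 ± 7.28, 374 ± 17.6 and 363 ± 16.97, and hsp-6, the mitochondrial HSP70, 299 ± 3.04, 301 ± 7.91 and 300.2 ± 2.54.

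Of the small heat shock proteins outside the hsp-16 genes listed above, 9 of 11 were tested, with medians of −0.0021 and −0.0025. The most abundant was sip-1, a small heat shock protein of embryos, at 3938 ± 100.4 FPKM in control, 3867 ± 82.9 with GO and 3932 ± 133 with GONH2. hsp-43 had 155 ± 24.98, 156 ± 18.7 and 165 ± 5.13 FPKM. The 3 HSF-1 regulators, whose proteins bind HSF-1 in an inhibitory complex, were hsb-1 at 132 ± 3.52, 131 ± 9.15 and 134 ± 7.71 FPKM, ddl-1 at 45.5 ± 1.83, 48.7 ± 0.921 and 45.9 ± 1.21, and ddl-2 at 12.7 ± 0.444, 12.56 ± 0.694 and 12.4 ± 0.501. ddl-1 did not overlap between GO and control (log2 0.097 ± 0.040, adjusted p = 0.607 in limma), an order that 9.0% of all genes showed.

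**Figure D5:**
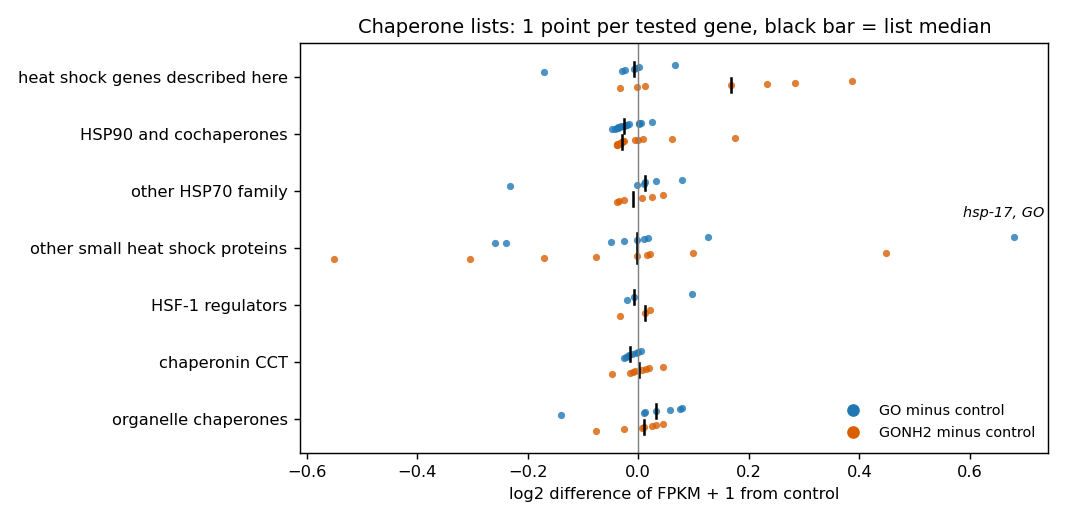
Log2 differences from control of FPKM + 1 for each tested gene of the heat shock set and the 6 other chaperone lists (points, GO and GONH2 in colour), with list medians as black bars. The point farthest from 0 is that of hsp-17 with GO (0.68), which did not pass the threshold.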

How the data were processed

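The deposited file gives FPKM, which the authors scaled to transcript length and to mapped fragments, for 46284 gene IDs in 9 libraries; the library kit was stranded TruSeq with paired-end reads, per the labels' protocols. Per the submitters' processing notes DESeq2 is listed among the tools, in a role they do not state. The aligner, counter, genome build and annotation release are not named in the labels or the file. Genes were matched by symbol, and the 10 heat shock genes by sequence name in Ensembl release 115 (WBcel235) and RefSeq names. Values were taken as log2(FPKM + 1). The filter kept genes that reached 1 FPKM in 3 or more libraries, and limma 3.58.1 (R 4.3.3, empirical Bayes with a mean-variance trend, group as the term) was fitted to all 9 libraries. No count model was used. The fit was tested on simulated data with changes of known size in the GO group, of which it recovered most. The changes were planted only in genes above a mean level that hsp-70 did not reach. These genes were drawn at random, without regard to their spread. The simulated spread was drawn independently for each gene, whereas in the data the inducible genes varied together across libraries. The recovery therefore does not measure the sensitivity for the inducible heat shock genes. Genes named beside the 10 are those fixed in the lists, the 2 most abundant of each list, any that passed, and the 3 most alike in pattern; others are marked. The members and lists were chosen with earlier results of these data known. Alternatives covered the added value, the filter, scaling, trend, weights, fits to 6 libraries, a replicate block and leaving out each library. Figures were drawn with matplotlib 3.10.9.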

Additional observations from a re-analysis of the deposited data

How the results depend on the processing

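Under the 19 alternatives to each comparison (18 for hsp-70, which the stricter filter removed), 0 of the heat shock genes passed the threshold, in any comparison or in the F test where it was run. Over 51 genes of the heat shock set and the lists and 2901 refitted differences, 0 reversed a called direction, 1 crossed the threshold, and 258 changed sign without being called under either setting. The crossing was hsp-17 for GO minus control without GONH2 replicate 3, where 1 of the other small heat shock proteins passed. Counts over all genes moved more. For GO minus control, leaving out a library gave 107 (without GO replicate 2) to 162 genes (162 with all libraries). For GONH2 minus control (56 with all libraries) there were 32 without a filter, 27 without the trend, 29 with the replicate block, 33 with 6 libraries, and 25 to 54 with a library left out (25, 27, 27 and 36 without GONH2 replicate 1, GONH2 replicate 2, control replicate 1 and GONH2 replicate 3). For GONH2 minus GO (17 with all libraries) there were 9 without the trend, 43 with array weights, 8 with the replicate block and 1 to 20 with a library left out (1 without GONH2 replicate 3). The replicate numbers were not taken as pairs: same-numbered libraries of different groups correlated at −0.17 to 0.13 in their deviations from group means. Differently numbered libraries correlated at −0.25 (control replicate 2 with GO replicate 1) to 0.27 (control replicate 2 with GO replicate 3). With the block, hsp-16.11 had an unadjusted p of 0.0196 for GONH2 minus GO and an adjusted p of 0.951. Read totals are unknown, so no counting limit can be given for the genes listed at 0.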

Other observations

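The small heat shock protein gene hsp-17 was singled out after its values were seen. It had 29.0, 40.2 and 31.7 FPKM in control, 54.1, 51.2 and 56.9 with GO, and 55.4, 50.5 and 34.3 with GONH2. The GO libraries all lay above the control libraries, an order that 9.0% of all genes tested showed, and GONH2 replicate 3 alone of its group lay among the controls. The log2 difference was 0.68 ± 0.18 for GO (SE; unadjusted p = 0.00416, adjusted p = 0.185 in limma) and 0.45 ± 0.18 for GONH2 (0.0322 and 0.829), so neither passed the threshold. Over the alternatives the adjusted p for GO ran from 0.0373 to 0.474, the lowest without GONH2 replicate 3. The other 8 tested genes of its list had log2 differences of −0.26 to 0.13 with GO and of −0.55 to 0.0997 with GONH2, where hsp-12.3 (−0.55 ± 0.27, adjusted p = 0.984 in limma) lay farther from 0 than hsp-17.

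The values of the inducible genes with GONH2 depended on single libraries. Without GONH2 replicate 1 the difference from control was −0.019 for hsp-70, 0.10 for hsp-16.11, 0.070 for hsp-16.2 and 0.17 for hsp-16.41, and without GONH2 replicate 3 it was 0.53, 0.42, 0.35 and 0.71 (log2; with all libraries 0.23, 0.28, 0.17 and 0.39). Without GONH2 replicate 3 the unadjusted p in limma was 0.0434 for hsp-70, 0.0845 for hsp-16.11, 0.203 for hsp-16.2 and 0.0493 for hsp-16.41. Without GONH2 replicate 1 it was 0.611 or more for these genes. The adjusted p in limma was 0.952 or more in each of these refits.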
